A study of Mus musculus with 12 samples.

Results

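The 38 genes described here encode proteins of mitosis and of the kinetochore, the protein plate that joins each chromosome to the spindle. They were taken by symbol from a list of names, and all 38 were found among the 23420 genes of the deposited count table. The rule itself uses no measured value, but the members were chosen with earlier results of these data known. The samples were bulk RNA of the pylorus, where the stomach opens into the duodenum, and C57BL/6 mice gave 3 libraries in each of 4 groups. The groups were CEA424-SV40 T Ag transgenic mice at 80 days of age (D80SV) and at 60 days (D60SV), and wild-type mice at 80 days (D80WT) and at 60 days (D60WT). The series title concerns an immune-excluded gastric cancer model, and the labels name no treatment. In the transgene, a promoter piece of the human carcinoembryonic antigen gene drives large T antigen of simian virus 40, so it acts in cells where that promoter is active and not in the whole organ. The labels do not say whether the 3 libraries of a group came from separate mice, so p-values measure the spread between libraries, which may be technical.

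Cells enter mitosis when Cdk1 bound to cyclin A or cyclin B becomes active, and they leave it when the anaphase-promoting complex has those cyclins and securin destroyed. Between these steps the kinetochores capture spindle microtubules, the spindle checkpoint delays anaphase until every chromosome is attached, and motor proteins and the central spindle finish the division of the cell. Many of these genes are transcribed late in the cell cycle, under factors such as the MuvB complexes with B-Myb and FoxM1, so their transcripts are widely read as a sign of dividing cells. In the pyloric glands of a healthy stomach, dividing cells are found mainly in the isthmus and at the gland base. In bulk tissue, a larger share of dividing cells and more RNA per dividing cell cannot be told apart.

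Levels are given as CPM, counts scaled to a library total of 1000000, where the total had first been adjusted for composition with edgeR's TMM factor. Library totals ran from 20121600 to 27633715 counts, and the least counted member in any library, Cdc25c in D80WT replicate 3, still had 62 counts. Calls below rest on the edgeR quasi-likelihood test over 15369 genes with Benjamini-Hochberg adjustment, at an adjusted p of 0.05. Differences between groups are log2 fold changes, given with their standard error (SE).

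1 library stood apart for these genes. D80WT replicate 3 was the lowest of the 12 libraries for all 38 members, at 0.42 to 0.69 of the mean of the other 2 D80WT libraries with a median of 0.57, while the median of that ratio over all tested genes was 0.993. The same library held 10401 summed CPM of 7 duodenal enterocyte markers, against 541 and 2423 in D80WT replicates 1 and 2, 1408 to 3166 in D80SV, 692 to 1531 in D60SV and 1042 to 1395 in D60WT. Sex transcripts also differed between libraries. The 3 D60WT libraries and D80SV replicate 1 held transcripts of the Y chromosome and at most 1 count of Xist, and the other 8 libraries held Xist, so genotype and sex coincided in all 6 libraries of D60.

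The summed level of the 38 members was highest in D80SV. The sums were 1708, 1749.7 and 1684 CPM in D80SV replicates 1 to 3, 1410.2, 1329.9 and 1149.8 CPM in D60SV, 1200.1, 1169 and 671 CPM in D80WT and 1126, 967 and 991 CPM in D60WT. All 3 D80SV libraries lay above every other library, and the D60SV range overlapped that of D80WT and stood just above the highest D60WT library. In means, this was 1714 ± 33.1 CPM in D80SV, 1297 ± 133 in D60SV, 1013 ± 297 in D80WT and 1028 ± 85.9 in D60WT (SD, n = 3 each). Scaled on library totals alone, with no TMM factor, the sums were 2133 ± 67.6, 1253 ± 148, 959 ± 342 and 917 ± 19.8 CPM in the same order of groups, so the distance of D80SV from the rest was larger on that scale. Libraries of D80SV resembled each other most closely, with a median coefficient of variation over the members of 5.74% in D80SV, 11.2% in D60SV, 30.1% in D80WT and 11.7% in D60WT. Over all tested genes the same medians were 11.8% in D80SV, 13.2% in D60SV, 20.1% in D80WT and 15.3% in D60WT.

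**Figure D1:**
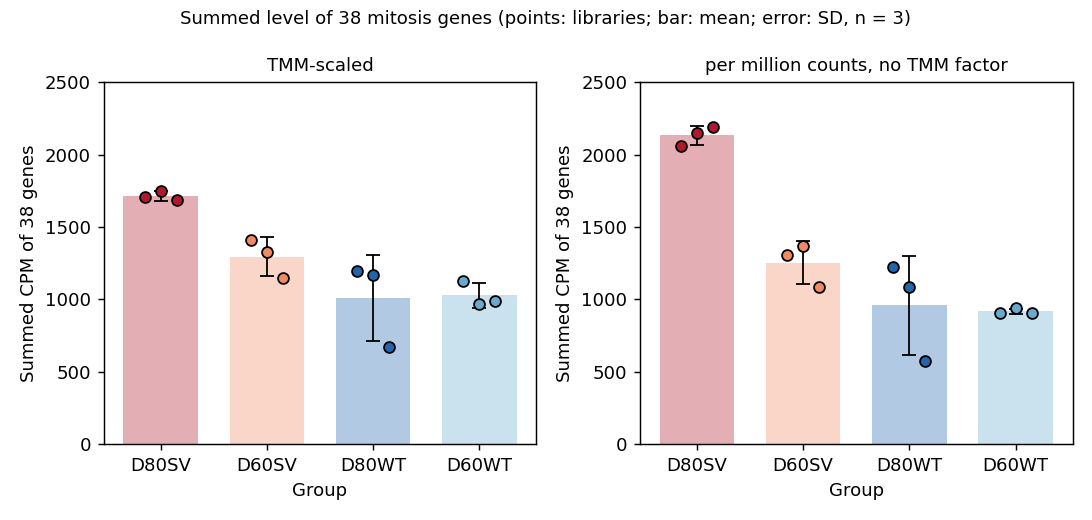
Summed CPM of the 38 members in each library (points), with the group mean (bar) and SD (error, n = 3), scaled by TMM on the left and without the TMM factor on the right. The 3 D80SV libraries, at 1684 to 1749.7 CPM on the left, lie above all 9 other libraries, and D80WT replicate 3 is the lowest point at 670.5 CPM.

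At D80, the older age, most of the members had higher levels in the transgenic pylorus than in the wild-type one. Of 38 members, 32 were called higher in D80SV than in D80WT and 0 lower, with a median log2 fold change of 0.83, or 1.78-fold. Over all genes tested, 19.4% were called higher and 22% lower, with a median of -0.07. In 34 members every D80SV library lay above every D80WT library, which held for 24.4% of all genes. The differences were moderate in size, and 12 of the 38 log2 fold changes exceeded 1.0. With no TMM factor 36 members were called higher at a median of 1.23, but on that scale the median of all genes was itself at 0.34, and 5104 genes were called higher and 1001 lower, against 2974 higher and 3380 lower with the factor. Of the 10 roles into which the members were sorted, all listed genes were called higher among the kinetochore, anaphase, spindle motor, cytokinesis and proliferation marker genes and for Foxm1, while the cyclin, kinase, chromosomal passenger and checkpoint genes each held members that did not pass.

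**Figure D2:**
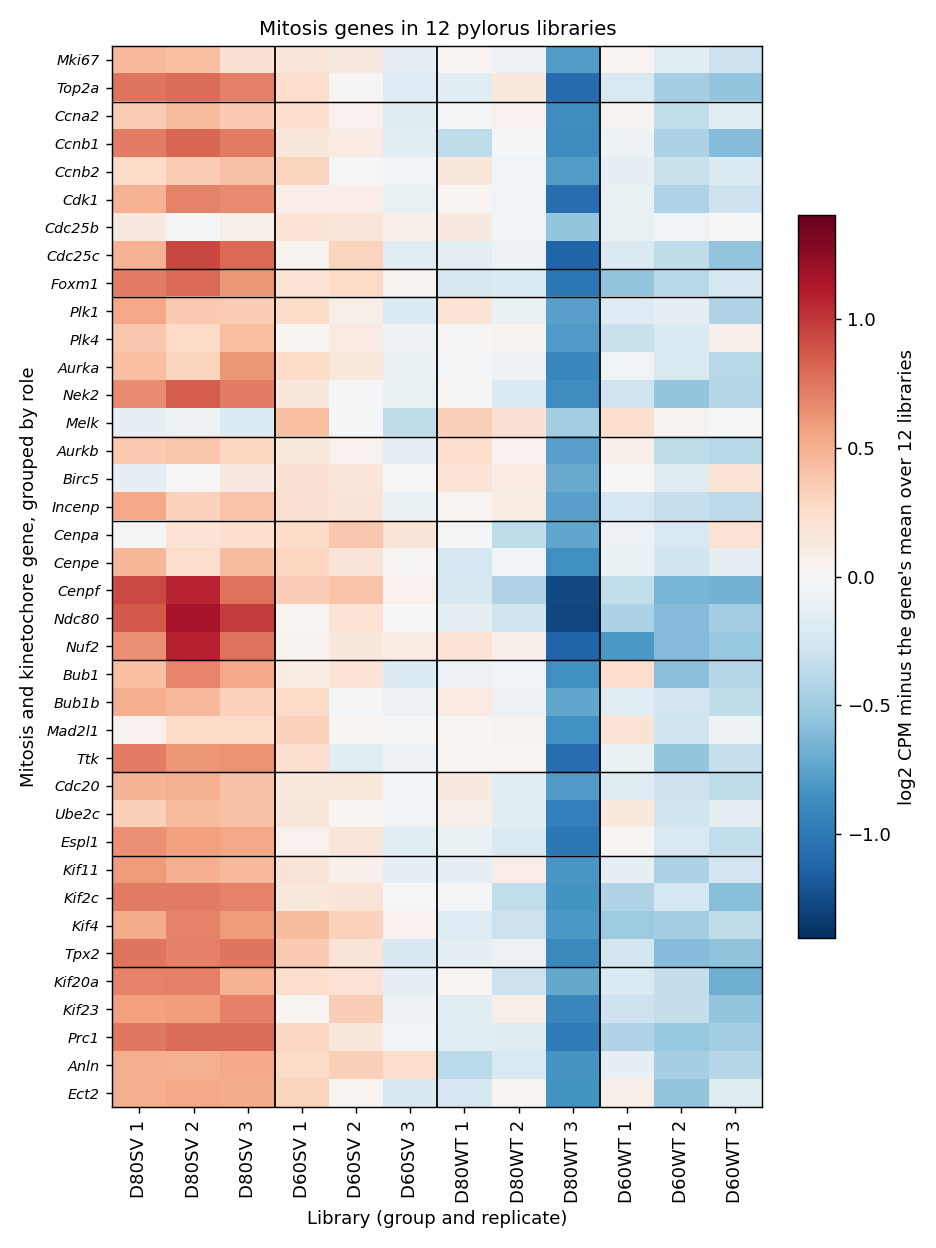
Log2 CPM of each member in each library, minus the mean of that gene over the 12 libraries, with genes grouped by role (horizontal lines) and libraries by group (vertical lines). The darkest red of a row is in a D80SV column in 33 of the 38 rows, and the D80WT replicate 3 column is the lowest in all 38.

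The kinetochore genes held the largest differences. Cenpf (chromosome 1, 189640606 to 189688086 in GRCm38), a large coiled-coil protein of the outer kinetochore, had 50.2, 55.5 and 44.9 CPM in D80SV and 22.7, 19.8 and 11.1 CPM in D80WT. Ndc80 (chromosome 17, 71496100 to 71526857), the microtubule-binding core of the outer kinetochore, had 16.9, 20.7 and 18.4 CPM in D80SV, against 8.57, 7.72 and 3.86 CPM in D80WT. For both genes the lowest transgenic library lay well above the highest wild-type one, and the log2 fold changes were 1.49 (SE 0.23, adjusted p = 0.00043) for Cenpf and 1.47 (SE 0.24, adjusted p = 0.00076) for Ndc80. Nuf2, the partner of Ndc80 in the same complex, was at 17.4, 23.4 and 18.8 CPM in D80SV and 12.7, 11.6 and 5.11 CPM in D80WT, a difference of 1.02 (SE 0.27, adjusted p = 0.011). Cenpe, the kinesin that carries chromosomes to the spindle equator, had 34.4, 29.5 and 33.5 CPM in D80SV and 20.97, 24.2 and 13.7 CPM in D80WT, a difference of 0.73 (SE 0.18, adjusted p = 0.0077). Neither gene overlapped between the groups. Cenpa, the histone H3 variant that marks centromeres, was the least changed of the 5 kinetochore genes. Its levels of 28.9, 33.8 and 34.8 CPM in D80SV overlapped those of 28.9, 23.1 and 17.8 CPM in D80WT, and its log2 fold change was 0.48 (SE 0.17, adjusted p = 0.042). The Cenpa call ended when any of D80WT replicates 2 and 3, D60SV replicates 1 and 3 or D80SV replicates 2 and 3 was left out, with adjusted p between 0.054 and 0.13 in those fits.

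Genes of the central spindle and of cytokinesis were all called higher, 5 of 5. Prc1 (chromosome 7, 80294450 to 80316259), which bundles the antiparallel microtubules of the midzone, had 66.7, 68.7 and 68.5 CPM in D80SV and 36.1, 35.6 and 20.02 CPM in D80WT, a log2 fold change of 1.15 (SE 0.19, adjusted p = 0.00070). Anln (chromosome 9, 22332012 to 22389188), the actin-binding scaffold of the contractile ring, had 45.3, 44.9 and 46.2 CPM in D80SV and 24.7, 27.4 and 18.1 CPM in D80WT, a difference of 0.96 (SE 0.15, adjusted p = 0.00051). The transgenic libraries of both genes lay within a few percent of each other and did not overlap the wild-type ones. Kif20a, the kinesin that brings the passenger complex to the midzone, was at 49.2, 49.7 and 42.8 CPM in D80SV, against 31.2, 24.6 and 18.5 CPM in D80WT, a difference of 0.93 (SE 0.19, adjusted p = 0.0028). Kif23, the motor subunit of centralspindlin, was at 33.3, 33.4 and 36.5 CPM in D80SV and 20.1, 23.7 and 11.9 CPM in D80WT, a difference of 0.89 (SE 0.21, adjusted p = 0.0065). For Ect2, the exchange factor that activates RhoA at the cleavage site, the libraries held 40.1, 40.6 and 40.5 CPM in D80SV and 23.98, 28.9 and 15.8 CPM in D80WT, a difference of 0.82 (SE 0.22, adjusted p = 0.012). None of these 3 genes overlapped between the groups either.

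All 4 spindle motor and assembly genes were called higher. Kif2c, a kinesin that takes microtubules apart at centromeres, had 21.1, 21.1 and 20.6 CPM in D80SV and 12.6, 10.1 and 7.15 CPM in D80WT, a log2 fold change of 1.08 (SE 0.19, adjusted p = 0.0010). Tpx2, which activates Aurora A and nucleates spindle microtubules, had 59.6, 57.5 and 59.6 CPM in D80SV and 32.3, 33.5 and 18.9 CPM in D80WT, a difference of 1.06 (SE 0.21, adjusted p = 0.0023). Neither gene overlapped. Kif4 (chromosome X, 100625737 to 100727214), a chromokinesin of chromosome arms and the midzone, had 27.4, 30.97 and 28.8 CPM in D80SV and 16.9, 15.5 and 10.96 CPM in D80WT, a difference of 1.01 (SE 0.16, adjusted p = 0.00064). Kif11, the motor that pushes spindle poles apart, had 51.9, 49.1 and 47.01 CPM in D80SV and 31.9, 36.8 and 19.5 CPM in D80WT, a difference of 0.75 (SE 0.19, adjusted p = 0.010). Both again had every D80SV library above every D80WT library.

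Among cyclins, Cdk1 and their activators, 4 of 6 were called higher. Ccnb1, cyclin B1, had 34.7, 37.1 and 35.1 CPM in D80SV and 16.6, 20.96 and 11.5 CPM in D80WT, a log2 fold change of 1.13 (SE 0.20, adjusted p = 0.0013). Its relative Ccnb2, cyclin B2, had 36.8, 39.2 and 40.6 CPM in D80SV and 34.2, 29.6 and 17.8 CPM in D80WT, a difference of 0.51 (SE 0.20, adjusted p = 0.057) that did not pass. The cyclin B2 libraries did not overlap between groups all the same, and Ccnb2 was called higher in 8 of 23 alternative fits, among them DESeq2 (adjusted p = 0.028), limma-voom (adjusted p = 0.037) and the replicate block (adjusted p = 0.046), over a range of adjusted p from 0.0091 to 0.14. Cdk1, the kinase both cyclins activate, had 71.1, 82.3 and 80.3 CPM in D80SV and 51.6, 49.1 and 24.4 CPM in D80WT, a difference of 0.90 (SE 0.22, adjusted p = 0.0080). Ccna2, cyclin A2, had 88.8, 94.4 and 89.6 CPM in D80SV and 68.1, 72.2 and 37.9 CPM in D80WT, a difference of 0.61 (SE 0.21, adjusted p = 0.034). The call of Ccna2 ended when D80WT replicate 3 or any D80SV library was left out, at log2 fold changes of 0.37 to 0.67 and adjusted p between 0.056 and 0.090. Of the CDC25 phosphatases, which switch Cdk1 on, Cdc25c had 8.17, 11.1 and 10.1 CPM in D80SV and 5.36, 5.56 and 2.69 CPM in D80WT, a difference of 1.11 (SE 0.26, adjusted p = 0.0064). Cdc25b had 58.4, 52.8 and 56.5 CPM in D80SV and 58.2, 51.97 and 36.7 CPM in D80WT, groups that overlapped, with a difference of 0.19 (SE 0.14, adjusted p = 0.31).

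Foxm1, a forkhead transcription factor that drives many late cell-cycle genes, had 41.5, 43.8 and 38.6 CPM in D80SV and 21.6, 21.9 and 12.4 CPM in D80WT. The groups lay far apart, and its log2 fold change was 1.15 (SE 0.19, adjusted p = 0.00076). Among 5 mitotic kinases, 4 were called higher. Nek2, a centrosome kinase, had 40.8, 46.4 and 42.4 CPM in D80SV and 25.97, 22.4 and 14.04 CPM in D80WT, a difference of 1.05 (SE 0.19, adjusted p = 0.0013). Aurka, the spindle pole kinase Aurora A, had 28.1, 26.1 and 32.2 CPM in D80SV and 20.6, 19.99 and 11.2 CPM in D80WT, a difference of 0.74 (SE 0.21, adjusted p = 0.015). Neither overlapped between the groups. Plk1, a kinase with roles from mitotic entry to cytokinesis, had 41.4, 36.7 and 36.3 CPM in D80SV and 32.4, 26.6 and 16.7 CPM in D80WT, a difference of 0.59 (SE 0.21, adjusted p = 0.039). Plk4, which starts centriole duplication, had 16.04, 15.1 and 16.6 CPM in D80SV and 12.6, 12.8 and 7.15 CPM in D80WT, a difference of 0.55 (SE 0.20, adjusted p = 0.047). The calls of these polo-like kinases were close to the threshold. That of Plk1 ended in 5 of the 12 fits that left out a library and that of Plk4 in 8 of them, and without D80WT replicate 3 the differences were 0.36 for Plk1 and 0.32 for Plk4. Melk, a kinase of the AMPK family often listed with proliferation genes, had 17.8, 18.4 and 16.95 CPM in D80SV and 24.3, 22.4 and 13.7 CPM in D80WT. Its D80SV libraries lay inside the D80WT range, and it was the 1 member with a negative log2 fold change, -0.19 (SE 0.22, adjusted p = 0.53), which was 0.21 with no TMM factor.

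The chromosomal passenger complex was divided, with 1 of 3 members called. Incenp, its scaffold, had 52.2, 44.9 and 47.3 CPM in D80SV and 36.5, 38.4 and 21.2 CPM in D80WT, a log2 fold change of 0.59 (SE 0.19, adjusted p = 0.027), and this call ended without D80SV replicate 1 (adjusted p = 0.081). Aurkb, the kinase Aurora B, had 25.9, 26.4 and 24.7 CPM in D80SV and 23.8, 20.9999 and 11.9 CPM in D80WT, a difference of 0.44 (SE 0.22, adjusted p = 0.13). The Aurora B groups did not overlap, though they nearly met. Birc5, survivin, the subunit that helps to place the complex on centromeres, had 29.5, 31.8 and 34.8 CPM in D80SV and 36.3, 34.4 and 19.5 CPM in D80WT, and its D80SV libraries lay within the wild-type range. The difference for Birc5 was 0.09 (SE 0.20, adjusted p = 0.74), with a 95% interval of -0.37 to 0.55. The corresponding intervals were -0.70 to 0.32 for Melk, -0.14 to 0.52 for Cdc25b, -0.07 to 0.95 for Aurkb and -0.10 to 0.90 for Mad2l1, so a change as large as the median of the members lay outside the intervals of Birc5, Melk and Cdc25b and inside those of Aurkb and Mad2l1.

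Of 4 spindle checkpoint genes, 3 were called higher. Ttk, the kinase Mps1 that starts checkpoint signalling, had 11.8, 11.03 and 11.1 CPM in D80SV and 7.40, 7.37 and 3.42 CPM in D80WT, a log2 fold change of 0.90 (SE 0.26, adjusted p = 0.017). Bub1, a kinetochore kinase, had 15.3, 18.4 and 16.5 CPM in D80SV and 10.8, 10.9 and 6.33 CPM in D80WT, a difference of 0.84 (SE 0.25, adjusted p = 0.019). In both genes the groups were apart. Bub1b, BubR1 of the checkpoint complex, had 31.3, 30.2 and 27.5 CPM in D80SV and 23.9, 20.7 and 13.3 CPM in D80WT, a difference of 0.62 (SE 0.19, adjusted p = 0.021). The calls of Bub1 and Bub1b each ended in 2 of the fits that left out a library. Mad2l1, Mad2, which holds Cdc20 inactive until attachment is complete, had 26.6, 30.8 and 30.8 CPM in D80SV and 26.1, 26.5 and 14.2 CPM in D80WT, groups that were barely apart, with a difference of 0.40 (SE 0.22, adjusted p = 0.16).

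The 3 anaphase genes were all called higher. Cdc20 (chromosome 4, 118432901 to 118437352), the activator of the anaphase-promoting complex, had 55.2, 56.1 and 52.6 CPM in D80SV and 43.1, 35.6 and 22.8 CPM in D80WT, a log2 fold change of 0.69 (SE 0.18, adjusted p = 0.011). Ube2c, the ubiquitin-conjugating enzyme of that complex, had 69.2, 74.7 and 73.3 CPM in D80SV and 58.4, 49.4 and 28.4 CPM in D80WT, a difference of 0.67 (SE 0.21, adjusted p = 0.025). Espl1, separase, which cuts the cohesin ring, had 16.6, 15.8 and 15.5 CPM in D80SV and 9.996, 9.22 and 5.29 CPM in D80WT, a difference of 0.97 (SE 0.22, adjusted p = 0.0046). No anaphase gene overlapped between groups. The pair of general proliferation markers was called higher as well. Mki67, the Ki-67 antigen that coats mitotic chromosomes, had 194, 189.6 and 164 CPM in D80SV and 146, 135 and 82.3 CPM in D80WT. Top2a, which untangles replicated DNA, had 155, 158 and 149.7 CPM in D80SV and 82.4, 102 and 43.3 CPM in D80WT, a difference of 1.02 (SE 0.24, adjusted p = 0.0065). The 2 markers differed in size, since the log2 fold change of Mki67 was 0.59 (SE 0.19, adjusted p = 0.029), below the median of the members. The call of Mki67 ended without D80SV replicate 1 (adjusted p = 0.077) or 2 (adjusted p = 0.080) and that of Ube2c without D80SV replicate 2 (adjusted p = 0.067).

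**Figure D3:**
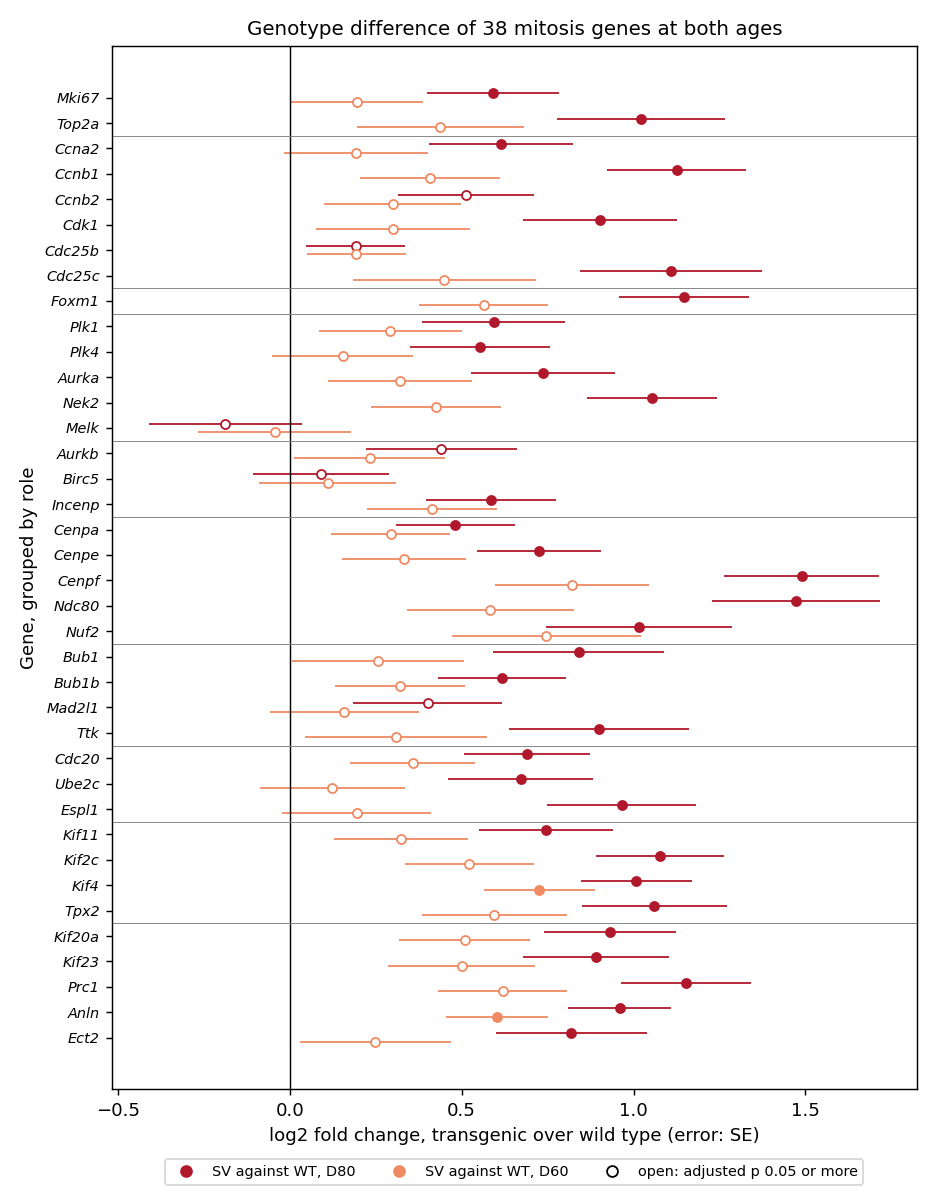
Log2 fold change of each member, transgenic over wild type, with SE, at D80 (red) and D60 (orange), and filled points for an adjusted p under 0.05. At D80 32 points are filled, with Cenpf at 1.49 farthest right and Melk at -0.19 farthest left, and at D60 only Kif4 and Anln are filled.

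The size of the D80 difference depended on D80WT replicate 3. Without that library, 26 members were called higher and 0 lower, and the median was 0.61 in place of 0.83. Of all 15602 genes then tested, 2816 were called higher and 2830 lower. The 6 calls that ended were those of Mki67 (0.37, adjusted p = 0.065), Ccna2, Plk1, Plk4, Cenpa and Bub1, while Cenpf, Ndc80, Foxm1 and Prc1 were among the 26 that remained. Birc5 was then at -0.15. Over all 23 alternative fits, 21 of the 32 calls were made every time.

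At D60, the younger age, the same comparison gave small differences. The edgeR test called 2 of 38 members higher in D60SV than in D60WT and 0 lower. Of all genes, 3.66% were called higher and 0.241% lower, so the share called higher was near that of the members. Kif4 had 25.8, 23.9 and 20.01 CPM in D60SV and 13.5, 13.7 and 14.99 CPM in D60WT, a log2 fold change of 0.73 (SE 0.16, adjusted p = 0.027). Anln had 38.4, 40.4 and 38.01 CPM in D60SV and 29.5, 23.2 and 24.2 CPM in D60WT, a difference of 0.60 (SE 0.15, adjusted p = 0.045). In both genes all D60SV libraries lay above all 6 wild-type libraries. The next members by p-value did not pass. Cenpf had 33.7, 34.96 and 27.7 CPM in D60SV and 20.9, 16.9 and 16.8 CPM in D60WT, a difference of 0.82 (SE 0.22, adjusted p = 0.072), and Prc1 had 48.7, 44.6 and 38.9 CPM in D60SV and 29.8, 27.7 and 28.6 CPM in D60WT, a difference of 0.62 (SE 0.19, adjusted p = 0.11). These groups did not overlap either. The median over the 38 members was 0.32, and 37 of them had a positive value. Over the 15369 genes tested the median was -0.004, and 7566 values were positive. In 21 members every D60SV library lay above every D60WT library, as in 12.2% of all genes. An unadjusted p under 0.05 by edgeR was reached by 12 members and by 2255 of all genes tested.

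Neither D60 call was stable. At least 1 of the calls of Kif4 and Anln was lost in 9 of the 12 fits that left out a library, and both were lost when any of the 3 D60WT libraries was the one left out. Without D80WT replicate 3, 8 members were called at D60, with a median SE of 0.14 in place of 0.21. Of all 15602 genes then tested at D60, 636 were called higher and 47 lower. Genotype and sex cannot be told apart in the 6 libraries of D60, and Kif4 lies on the X chromosome. A covariate for the sex class of the transcripts could be estimated from D80SV alone, the 1 group with both classes. Carried over to D60, it could not separate sex from genotype there. In that fit 0 members were called at D60, with a median of 0.36 and a median SE of 0.38. Of all 15369 genes, 85 were called higher and 0 lower. The values were 0.60 (SE 0.30) for Kif4 and 0.60 (SE 0.28) for Anln.

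**Figure D4:**
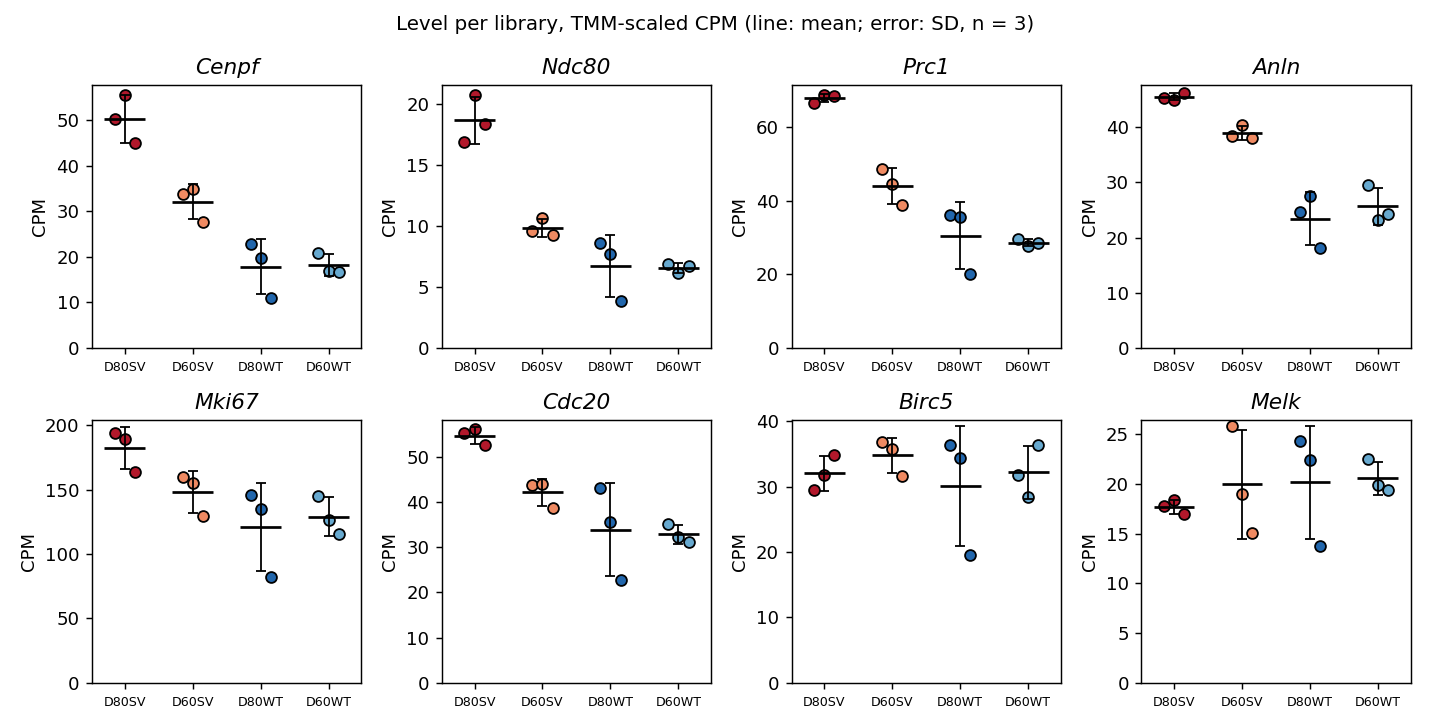
CPM of 8 members in each library (points), with group mean (line) and SD (error bar, n = 3), for D80SV, D60SV, D80WT and D60WT from left to right. Cenpf, Ndc80, Prc1 and Anln have every D80SV and every D60SV library above every wild-type library, Mki67 and Cdc20 have D80SV on top, and in Birc5 and Melk the transgenic and wild-type libraries overlap at each age.

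Between the ages in transgenic pylorus, most members had higher mean levels in D80SV than in D60SV, and a minority passed the test. It called 9 of 38 higher and 0 lower, with a median log2 fold change of 0.42, where 17.7% of all genes were called higher and 18% lower. The share called higher was near that of all genes, so the 9 calls alone do not set the members apart. This comparison shares the D80SV libraries with the D80 genotype comparison, so the values of both comparisons are not independent. Ndc80 had 16.9, 20.7 and 18.4 CPM in D80SV and 9.56, 10.7 and 9.28 CPM in D60SV, a difference of 0.92 (SE 0.24, adjusted p = 0.012). Nek2 had 40.8, 46.4 and 42.4 CPM in D80SV and 28.8, 25.5 and 24.01 CPM in D60SV, a difference of 0.73 (SE 0.19, adjusted p = 0.012). Neither gene overlapped between ages. Top2a had 155, 158 and 149.7 CPM in D80SV and 108, 92.5 and 80.9 CPM in D60SV, a difference of 0.71 (SE 0.24, adjusted p = 0.039), and Ccnb1 had 34.7, 37.1 and 35.1 CPM in D80SV and 23.7, 23.003 and 19.2 CPM in D60SV, a difference of 0.70 (SE 0.20, adjusted p = 0.019). These 2 genes were also separated. The other 5 calls were Cenpf at 0.64 (SE 0.22, adjusted p = 0.040), Prc1 at 0.62 (SE 0.19, adjusted p = 0.022), Tpx2 at 0.61 (SE 0.21, adjusted p = 0.041), Kif2c at 0.60 (SE 0.18, adjusted p = 0.025) and Foxm1 at 0.54 (SE 0.19, adjusted p = 0.043). In 31 members every D80SV library lay above every D60SV library, which held for 30.6% of all genes.

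The remaining 29 members did not pass between ages in transgenic mice. Just above the threshold were Kif20a at 0.52 (SE 0.19, adjusted p = 0.051), Nuf2 at 0.73 (SE 0.27, adjusted p = 0.053), Cdk1 at 0.59 (SE 0.22, adjusted p = 0.060) and Espl1 at 0.56 (SE 0.21, adjusted p = 0.062). Values were negative for 4 members, namely Melk at -0.17, Cenpa at -0.13, Birc5 at -0.12 and Cdc25b at -0.08, and all 4 were positive with no TMM factor, at 0.20 to 0.29. The levels of Birc5 were 29.5, 31.8 and 34.8 CPM in D80SV and 36.8, 35.7 and 31.7 CPM in D60SV, and those of Cdc25b were 58.4, 52.8 and 56.5 CPM in D80SV and 61.3, 59.97 and 56.02 CPM in D60SV, with overlap in both genes. The count of 9 moved widely with the choice of libraries. It was 21 without D80WT replicate 3 and 1 without D60SV replicate 3, which had the lowest sum of its group. Ndc80 alone was called in all 23 alternative fits. Without D80SV replicate 2 the count was 2. All genes called higher were 3130 of 15602 without D80WT replicate 3 and 1933 of 15599 without D60SV replicate 3. Without D80SV replicate 2 they were 1792 of 15493.

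In wild-type pylorus no member was called between the ages. Age and sex coincide in these 6 libraries, since the D60WT libraries held Y transcripts and the D80WT libraries Xist, and cannot be told apart. The edgeR test called 0 of 38 members between D80WT and D60WT, and 0% of all genes were called higher and 0% lower, while 1925 genes had an unadjusted p under 0.05 and DESeq2 called 164 genes higher and 90 lower. No member reached an unadjusted p under 0.05, DESeq2 and limma-voom called 0, and the median log2 fold change was -0.01. The members with the smallest p-values pointed both ways. Cenpa had 28.9, 23.1 and 17.8 CPM in D80WT and 27.8, 25.5 and 33.9 CPM in D60WT, a difference of -0.32 (SE 0.17, adjusted p = 0.48), and Nuf2 had 12.7, 11.6 and 5.11 CPM in D80WT and 6.36, 7.30 and 7.71 CPM in D60WT, a difference of 0.46 (SE 0.27, adjusted p = 0.53). Both genes overlapped between ages. Cenpe was at -0.18 (SE 0.18, adjusted p = 0.73) and Espl1 at -0.21 (SE 0.22, adjusted p = 0.74). Without D80WT replicate 3 the median was 0.23, again with 0 calls.

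Whether the genotype difference itself was larger at D80 than at D60 was tested as an interaction. For 35 of 38 members the log2 fold change was larger at D80, with a median interaction of 0.42. Over all genes tested it was larger at D80 for 6856 of 15369, with a median of -0.06. By the edgeR test 0 members passed, against 2.77% of all genes higher and 2.23% lower. The smallest p-values belonged to Ndc80 at 0.89 (SE 0.34, adjusted p = 0.15), Espl1 at 0.77 (SE 0.31, adjusted p = 0.16), Ccnb1 at 0.72 (SE 0.29, adjusted p = 0.16) and Nek2 at 0.63 (SE 0.27, adjusted p = 0.18). The levels of Espl1 were 16.6, 15.8 and 15.5 CPM in D80SV against 9.996, 9.22 and 5.29 in D80WT, and 11.1, 11.9 and 9.49 CPM in D60SV against 10.9, 9.19 and 8.38 in D60WT. At an unadjusted p under 0.05 there were 5 members by edgeR, 8 by DESeq2 and 7 by limma-voom. Of all 15369 genes tested, 3567, 3702 and 3379 reached it, in the same order of tools. The adjusted count of members was 0 with all 3 tools. Without D80WT replicate 1 it was 3, namely Nek2, Ndc80 and Kif2c, and 878 of all 15611 genes were called higher and 1541 lower. Without D80WT replicate 3 the median interaction was 0.19 (median SE 0.20), and without both that library and D80SV replicate 1 it was 0.195, each with 0 calls. A larger difference at D80 was therefore not shown for any member in the full set of libraries.

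Taking all 4 groups, 34 of 38 members had group means in the order D80SV, D60SV and then both wild-type groups, and the exceptions were Cdc25b, Melk, Birc5 and Cenpa. The highest of the 12 libraries was a D80SV library for 33 members. It was a D60SV library for Cdc25b, Melk, Birc5, Cenpa and Mad2l1. Cenpa had 32.5 ± 3.19 CPM in D80SV, 35.6 ± 2.46 in D60SV, 23.3 ± 5.58 in D80WT and 29.1 ± 4.32 in D60WT (SD, n = 3 each). Melk had 17.7 ± 0.727 CPM in D80SV, 19.96 ± 5.48 in D60SV, 20.2 ± 5.65 in D80WT and 20.6 ± 1.65 in D60WT. The order of the Melk means could not be told from the spread within D60SV and D80WT. In 8 members, every D60SV library also lay above all 6 wild-type libraries. How many of all genes had the same order of means, highest group or separation was not counted. These counts therefore cannot be read as particular to the members.

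Shares of the members' summed level are given for 5 members with high or low fold changes at D80, which these shares restate. As a share of the members' summed level, Cenpf made up 2.92 ± 0.252% in D80SV and 1.75 ± 0.130% in D80WT (SD, n = 3), and Prc1 3.96 ± 0.0884% in D80SV and 3.01 ± 0.0285% in D80WT. Birc5 made up 1.87 ± 0.174% in D80SV and 2.96 ± 0.0570% in D80WT, Melk 1.03 ± 0.0236% in D80SV and 1.998 ± 0.0706% in D80WT, and Cdc25b 3.27 ± 0.215% in D80SV and 4.92 ± 0.518% in D80WT. These shares cancel any factor common to a library and are a description without a test. Levels were compared between genes only after division by the length of the joined exons in GENCODE M21. In D80SV the highest levels per kilobase were those of Cdc20 at 29.3, Ube2c at 27.8 and Ccnb2 at 25.4 CPM per kb, and the lowest those of Espl1 at 1.82 and Cdc25c at 1.99 CPM per kb. In D60WT, Ube2c at 20.03 and Cdc20 at 17.6 CPM per kb were again at the top, and Cdc25c at 0.924 and Ndc80 at 1.01 CPM per kb at the bottom. Some of these values may be shifted up or down by a neighbour. Exons of Ube2c, Kif20a, Kif4, Cdc25c, Ccna2 and Prc1 overlap those of a gene on the opposite strand. The overlaps cover 22.8%, 29.3%, 15.1%, 12.7%, 12.5% and 11.1% of their length, in that order. The strand setting of the counting is not given in the sources used here, and the direction of any shift was not tested. Ccnb1, Ccnb2 and Kif4 also have annotated processed pseudogenes.

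Promoters were compared because most of these genes moved together. Late cell-cycle genes are known for a CHR element, TTTGAA, often placed close to a CCAAT box, which NF-Y binds, and RefSeq windows from 250 bases before to 50 bases after the start site (GRCm38.p6) were at hand for 31 of the 38 members. Both strands were searched, and TTTGAA was found in 21 members, or 67.7%, against 20.2% of 27025 genes. CCAAT was found in 23 members, or 74.2%, against 41.1% of genes, and both motifs in 18, or 58.1%, against 8.97% of genes. An E2F motif, given as TTTCCCGC, TTTGGCGC or TTTCGCGC, was found in Cdk1 alone, 3.23% of members against 2.12% of genes. Below are 140 bases, from 120 before to 20 after the start site, of 3 members called higher at D80 with both motifs and of 3 members that were not called, with the upstream of the 2 starts listed for Prc1. Capitals mark TTTGAA and CCAAT, or CCAAT read on the other strand as ATTGG.
Cenpf (chr1:189688067-189688206, minus strand): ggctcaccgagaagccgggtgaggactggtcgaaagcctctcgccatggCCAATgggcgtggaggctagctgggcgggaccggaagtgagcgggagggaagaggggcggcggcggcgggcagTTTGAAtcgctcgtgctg
Prc1 (chr7:80294331-80294470, plus strand): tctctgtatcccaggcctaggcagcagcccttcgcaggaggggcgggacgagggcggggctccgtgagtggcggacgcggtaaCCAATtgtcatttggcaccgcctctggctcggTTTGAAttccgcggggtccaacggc
Cdc20 (chr4:118437324-118437463, minus strand): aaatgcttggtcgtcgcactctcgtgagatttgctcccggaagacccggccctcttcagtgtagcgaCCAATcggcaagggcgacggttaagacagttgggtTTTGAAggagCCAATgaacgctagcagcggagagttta
Birc5 (chr11:117849117-117849256, plus strand): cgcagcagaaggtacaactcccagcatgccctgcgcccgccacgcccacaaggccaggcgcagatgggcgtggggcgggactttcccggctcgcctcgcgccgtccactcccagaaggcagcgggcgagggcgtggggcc
Melk (chr4:44300797-44300936, plus strand): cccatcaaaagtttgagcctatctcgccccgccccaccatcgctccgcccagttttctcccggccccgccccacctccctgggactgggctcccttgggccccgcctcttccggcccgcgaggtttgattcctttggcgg
Cdc25b (chr2:131186828-131186967, plus strand): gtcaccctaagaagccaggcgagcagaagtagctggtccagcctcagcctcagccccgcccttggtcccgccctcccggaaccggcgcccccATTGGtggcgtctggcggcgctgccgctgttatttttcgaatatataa

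In Cenpf, Prc1 and Cdc20 a CCAAT box lies upstream of TTTGAA on the same strand, and Cdc20 has another CCAAT directly after it. The windows of Birc5 and Melk hold neither motif, and that of Cdc25b holds CCAAT alone. These 3 are not all of the uncalled members, and the window of Ccnb2, also uncalled, holds both motifs. Of the 10 windows without TTTGAA, those of Birc5, Melk, Cdc25b and Mad2l1 belong to uncalled members. The others are those of Ccnb1, Nek2, Nuf2, Bub1, Cenpe and Plk4, all called higher at D80. Aurkb, also uncalled, had no window. Whether the motif goes with the calls was not tested. The median log2 fold change at D80 was 0.89 over the 21 members with TTTGAA and 0.64 over the 10 without, but 0.78 over the 18 with both motifs and 0.84 over the 13 without the pair. Matches describe the letters in these windows and not binding.

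A list of 96 other mitosis genes, drawn from the same processes and also chosen with earlier results known, was read in the same way. Of these, 53 were called higher at D80 and 1 lower, with a median of 0.68, where 19.4% of all genes were called higher and 22% lower. At D60, 1 of the 96 was called higher, against 3.66% of all genes. Spc25, a subunit of the Ndc80 complex, had 158, 198 and 183 CPM in D80SV and 15.4, 14.7 and 8.88 CPM in D80WT, a log2 fold change of 3.79 (SE 0.21, adjusted p = 3.8e-07), and it was the gene called at D60, at 1.88 (SE 0.20, adjusted p = 0.00017). Its fold at D80 was well above that of its partners Ndc80 and Nuf2. Zwint, of the outer kinetochore, was at 1.20 (SE 0.12, adjusted p = 2.4e-05), the minus-end kinesin Kifc1 at 1.48 (SE 0.20, adjusted p = 0.00022) and the spindle protein Spag5 at 1.16 (SE 0.16, adjusted p = 0.00024). The 1 gene called lower was Pttg1, securin, the inhibitor of the member Espl1, with 9.94, 11.2 and 10.2 CPM in D80SV and 17.8, 14.03 and 14.6 CPM in D80WT, a difference of -0.57 (SE 0.13, adjusted p = 0.0056). With no TMM factor the call of Pttg1 was lost, at -0.16 (adjusted p = 0.52). Other genes on the negative side did not pass, among them Anapc2 of the anaphase-promoting complex at -0.25 (SE 0.10, adjusted p = 0.059), its activator Fzr1 at -0.35 (SE 0.15, adjusted p = 0.077) and the spindle pole protein Numa1 at -0.43 (SE 0.18, adjusted p = 0.081), and these 3 values were positive with no TMM factor. Between ages in transgenic pylorus, 26 of the 96 were called higher and 1 lower, against 17.7% and 18% of all genes, and between ages in wild-type pylorus 0 were called, with 7 at an unadjusted p under 0.05 by edgeR.

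Cell type markers moved with the same groups. Summed levels of 4 neuroendocrine markers were 23016 to 34725 CPM in D80SV, 4057 to 5558 CPM in D60SV, 466 to 499.7 CPM in D80WT and 262 to 397 CPM in D60WT, and all 4 were called higher at both ages. Those of 5 smooth muscle markers were 2031 to 2148 CPM in D80SV, 5133 to 10579 CPM in D60SV, 8309 to 13801 CPM in D80WT and 11899 to 15422 CPM in D60WT, with 5 of 5 called lower at D80. Mucous cell markers were at 36163 to 51554 CPM in D80SV and 120288 to 151607 CPM in D60SV. In wild type they were at 106199 to 151489 CPM in D80WT and 132550 to 207652 CPM in D60WT. Of the 5, namely Muc5ac, Tff1, Gkn1, Gkn2 and Tff2, 4 were called lower at D80. Tff2 had 752977, 470738 and 651987 counts in D80SV replicates 1 to 3, the most of the 5 in each library. In D80WT it had 1289903, 519418 and 344802 counts. The single antral G cell marker, the gastrin gene Gast, was at 82.5 to 97.7 CPM in D80SV, 262 to 425 CPM in D60SV, 699 to 1610 CPM in D80WT and 538 to 1100 CPM in D60WT and was called lower at D80. The 3 D80SV libraries differed from all others in tissue markers as well as in mitosis genes. Leukocyte markers were at 36.5 to 95.2 CPM in D80SV, 9.88 to 16.9 CPM in D60SV, 8.04 to 31.7 CPM in D80WT and 4.52 to 9.42 CPM in D60WT, with 4 of 6 called higher at D80 and Cd3e at 0 counts in 2 D60WT libraries. Pancreatic acinar markers were at 669 to 3206 CPM in D80SV, 301 to 409 CPM in D60SV, 282 to 612 CPM in D80WT and 332 to 539.6 CPM in D60WT, with Cpa1 at 0 counts in all 3 D60WT libraries. Outside D80SV most of the pancreatic sum was Cela1, at 7019 to 11338 counts in D60WT. Ctrb1 had at most 2 counts in D60WT and 44416, 9719 and 7157 counts in D80SV replicates 1 to 3. It had 5, 3 and 1606 counts in D80WT replicates 1 to 3 and 746, 274 and 2 in D60SV. Cpa1, Prss2, Cel and Pnlip followed a similar pattern, and 0 of the 6 pancreatic markers were called at D80. The part of all these cell type markers in the levels of the 38 members was not tested.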

How the data were processed

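All results come from the gene-level counts that the authors deposited for the 12 libraries, unnormalized. Per the labels, a Qiagen kit was used for RNA and an Illumina stranded mRNA kit for the libraries. Per the submitters' processing notes, build mm10 was used, with edgeR 3.16.5, HTSeq 0.9.1 and STAR 2.5.3a among the tools. A deposited normalized table was not used here, and SV40 sequence was not analysed here. In R 4.3.3, edgeR 4.0.16 was used for filterByExpr (15369 of 23420 genes, 99.975% of counts), TMM factors (0.805 to 1.30) and a quasi-likelihood fit with 1 coefficient per group over all 12 libraries (8 residual degrees of freedom, biological coefficient of variation 24.2%). Benjamini-Hochberg adjustment covered all tested genes. The code was tested on simulated data. DESeq2 1.42.0, limma-voom (limma 3.58.1), other scalings and filters, only the 2 groups compared, a replicate block, sex class and leaving out libraries were alternatives. The sex class term rested on D80SV alone, the only group with both classes. The labels do not say whether replicate numbers pair libraries, and the main fit used no pairing. Residuals of the 18 same-number pairs correlated at -0.34 to 0.39, with a mean of -0.004 and 6 pairs over 0.1. Residuals centred within groups of 3 cannot exclude pairing. Members, lists and alternatives were chosen with earlier results of these data known. Fitted values were named for all members in the D80 genotype and transgenic age comparisons, for the 4 smallest p-values in other comparisons, and for the 4 smallest p-values in each direction among other mitosis genes.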

Additional observations from a re-analysis of the deposited data

Results flagged for a closer look

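Among the 96 other mitosis genes, 2 had a genotype difference that itself differed between the ages by the edgeR interaction test, where 2.77% of all genes were called higher and 2.23% lower, a share near that of the list. Of the 38 members, 0 were called. Spc25, a subunit of the Ndc80 complex, had 158, 198 and 183 CPM in D80SV against 15.4, 14.7 and 8.88 CPM in D80WT, and 52.1, 64.3 and 52.9 CPM in D60SV against 15.3, 13.1 and 17.5 CPM in D60WT. Its interaction was 1.91 on the log2 scale (SE 0.28, adjusted p = 0.0073). The groups of Spc25 did not overlap at either age, and its exons overlap no other annotated gene. Zwint, of the outer kinetochore, had 37.9, 51.03 and 41.3 CPM in D80SV against 20.3, 18.1 and 18.2 CPM in D80WT, and 22.7, 23.7 and 23.6 CPM in D60SV against 19.9, 18.1 and 19.4 CPM in D60WT. Its interaction was 0.92 (SE 0.17, adjusted p = 0.015).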

How the results depend on the processing

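At D80 the direction held for every called member in all 23 alternative fits, and the count of members called higher stayed at 22 to 36, with 24 to 34 when a single library was left out and 31 with the replicate block. The smallest counts came without both D80WT replicate 3 and D80SV replicate 1 (22) and with only the 2 groups compared (24). Over all genes, 2974 of 15369 were called higher at D80 as reported and 5104 with no composition factor. Without both libraries 2660 of 15534 were called, and with only the 2 groups compared 2835 of 15220. With a single library left out, 2382 to 3371 genes were called higher. The count at D60, 2 as reported, was 1 with median-of-ratios size factors, 4 with DESeq2 and 5 with only the 2 groups compared. It was 0 with sex class as a covariate and 6 without both D80WT replicate 3 and D80SV replicate 1. When a single library was left out it was 0 to 8. All genes called higher at D60 were 562 of 15369 as reported, 559 with median-of-ratios size factors, 833 with DESeq2 and 85 with sex class. With only the 2 groups compared they were 533 of 14481, and without both libraries 594 of 15534. They were 364 to 669 when a single library was left out. Between ages in transgenic mice, 9 as reported became 15 under upper-quartile scaling, 33 with no composition factor and 16 with a mean of at least 5 CPM. It was 16 with DESeq2, 14 with limma-voom, 25 with only the 2 groups compared and 4 with sex class. The count was 17 without both libraries, and 1 to 21 when a single library was left out. All genes called higher there moved as well. They were 2725 of 15369 as reported, 3114 under upper-quartile scaling, 5154 with no composition factor and 1953 of 11555 with a mean of at least 5 CPM. DESeq2 called 3249, limma-voom 3007, the 2 groups alone 3596 of 15195 and sex class 2404. Without both libraries 2811 of 15534 were called, and 1792 to 3334 when a single library was left out. The interaction count was 0 to 3 on leaving out a single library, where 133 to 878 of all genes were called higher. The replicate block gave 3 at D60, 11 between ages in transgenic mice, and 0 between ages in wild-type mice and for the interaction. Over all 15369 genes it called 575 higher at D60 and 2667 between ages in transgenic mice. With no composition factor these values turned positive: at D80 Melk (0.21), Anapc2 (0.16), Fzr1 (0.080) and Numa1 (0.0017), and between ages in transgenic mice Cdc25b (0.29), Melk (0.20), Birc5 (0.25) and Cenpa (0.23). Cdc25b between those ages was 0.021 under upper-quartile scaling. Without both libraries, Cdc25b (-0.015) and Birc5 (-0.090) turned negative at D80, and Cenpe (0.022) and Espl1 (0.023) turned positive between ages in wild-type mice. Leaving out a single library gave Birc5 at -0.15 to 0.25 at D80, Melk at -0.34 to 0.055 between ages in transgenic mice, and Cenpe at -0.36 to 0.022 and Espl1 at -0.38 to 0.023 between ages in wild-type mice. Of the 96 other mitosis genes, 53 called higher at D80 became 85 with no composition factor and 35 without both libraries. Over all genes, these fits called 2974 of 15369, 5104 of 15369 and 2660 of 15534 higher. Between ages in transgenic mice, 26 became 60 with no composition factor and 42 with only the 2 groups compared. It became 10 without D60SV replicate 3 and 14 without D80SV replicate 2. The matching counts over all genes were 5154 of 15369, 3596 of 15195, 1933 of 15599 and 1792 of 15493, against 2725 of 15369. The causes were not tested. With 3 libraries a group, the median SE of a member was 0.21 at D60 and 0.29 for the interaction, against medians of 0.32 and 0.42, and the interaction median was 0.19 without D80WT replicate 3.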
